A study of Mus musculus with 8 samples.

Results

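The transcripts described here encode 5 mediators of ovulation made by granulosa cells, the somatic cells around the oocyte. They are Areg (amphiregulin, ENSMUST00000031325), Ereg (epiregulin, ENSMUST00000031324), Ptgs2 (prostaglandin synthase, ENSMUST00000035065), Has2 (hyaluronan synthase, ENSMUST00000050544) and Tnfaip6 (ENSMUST00000065927). They were chosen by transcript identifier for their known role, and make up 5 of the 110473 transcripts measured. Transcript lengths are 1215, 4128, 4453, 4237 and 1710 bases in that order. The pairing of name and identifier was given with the list, because the name tables used here hold gene identifiers and not transcript identifiers. Other transcripts of the same genes were not analysed.

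RNA came from granulosa cells of C57BL/6 mice aged 22 to 25 days, freed by puncturing the ovary. The mice were first primed with eCG (equine chorionic gonadotropin, 5 IU), a hormone that makes follicles grow. Samples were taken 44 h later, just before human chorionic gonadotropin (hCG), the substitute for the luteinising hormone (LH) surge, or 4 h after 5 IU of it. Control mice (CTL) were Nr5a2 f/f Amhr2 Cre/-, while conditional knockouts (cKO) were Nr5a2 f/f Amhr2 Cre/+. Both genotypes thus carried the floxed allele of Nr5a2, the gene of the nuclear receptor LRH-1, although the genotype label of CTL reads LRH-1 +/+. Cre followed the promoter of the anti-Müllerian hormone type II receptor, so loss was aimed at granulosa cells from the primary follicle onward. Each of the 4 groups has 3 libraries, called library 1, 2 and 3 by their file numbers, and nothing in the labels says whether these came from separate mice or pools. Error terms and p-values therefore measure the spread between libraries, which may be partly technical. In bulk RNA, fewer cells making a transcript and less RNA per cell cannot be told apart.

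Library totals, in estimated counts, spanned 9250965 to 15439164 for CTL before hCG, 12517554 to 18286964 for CTL after hCG, 12867403 to 18022984 for cKO before hCG and 16721397 to 23753060 for cKO after hCG. Transcripts above 0 numbered 26687 to 40660 per library before hCG and 11784 to 27351 after it, with the fewest in CTL library 2 after hCG. Libraries of a group were only loosely alike, with a median Pearson's r of 0.25 of log2 levels over 13417 transcripts (range 0.21 to 0.48, 12 pairs, transcripts are not independent). The libraries numbered 1 of both CTL groups, and the one numbered 1 taken before hCG in cKO, correlated with one another at 0.39 to 0.53 although they belong to 3 groups, and are called the 3 libraries that stand apart. Nr5a2 and the markers of granulosa and other ovarian cells were not analysed here, so genotype and cell type rest on the labels.

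The LH surge reaches the follicle through receptors on mural granulosa cells and raises cyclic AMP there. Areg and Ereg are ligands of the epidermal growth factor (EGF) receptor that are made in response and relay the signal to the cumulus cells around the oocyte. Ptgs2 is the inducible enzyme of prostaglandin synthesis. Has2 makes the hyaluronan of the expanding cumulus matrix, and Tnfaip6 helps to link that hyaluronan to proteins. In mouse, loss of function in this pathway impairs cumulus expansion or ovulation.

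Areg, Ereg, Ptgs2 and Tnfaip6 held 5 counts or fewer in every library before hCG, while Has2 reached 26 counts in CTL library 2 and 162 in cKO library 1. All 5 had at least 1 count in every library after hCG, although in cKO library 1 Areg had 1 count at both times and Has2 was lower after hCG than before it. The summed level of the 5 lay between 0.06 and 3.52 TPM (the abundance per length of transcript, scaled to the same total in every library) in the 6 libraries before hCG, and between 12.3 and 370.0 TPM in the 6 after it. The promoters that the RefSeq table holds for them (build GRCm38.p6, 3 of 5 members, not Ereg or Has2) are shown as a description and were not tested against the hCG response. Each runs from 250 bases before the annotated start to 50 bases after it, on the plus strand: Areg at chr5:91139349-91139648, Ptgs2 at chr1:150099781-150100080 and Tnfaip6 at chr2:52037863-52038162. Capitals mark matches, on either strand, to the motifs described after them.
Areg: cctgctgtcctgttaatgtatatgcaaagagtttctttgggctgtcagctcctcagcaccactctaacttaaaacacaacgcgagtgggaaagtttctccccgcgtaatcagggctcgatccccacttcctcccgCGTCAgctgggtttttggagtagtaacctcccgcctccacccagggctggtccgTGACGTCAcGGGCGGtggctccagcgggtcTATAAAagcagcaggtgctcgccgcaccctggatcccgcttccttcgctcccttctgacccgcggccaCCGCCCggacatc
Ptgs2: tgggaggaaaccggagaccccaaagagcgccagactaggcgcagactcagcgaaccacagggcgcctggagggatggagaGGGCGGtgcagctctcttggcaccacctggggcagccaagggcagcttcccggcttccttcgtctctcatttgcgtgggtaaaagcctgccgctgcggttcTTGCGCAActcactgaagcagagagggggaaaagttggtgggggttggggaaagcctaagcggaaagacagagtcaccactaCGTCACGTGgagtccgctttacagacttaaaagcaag
Tnfaip6: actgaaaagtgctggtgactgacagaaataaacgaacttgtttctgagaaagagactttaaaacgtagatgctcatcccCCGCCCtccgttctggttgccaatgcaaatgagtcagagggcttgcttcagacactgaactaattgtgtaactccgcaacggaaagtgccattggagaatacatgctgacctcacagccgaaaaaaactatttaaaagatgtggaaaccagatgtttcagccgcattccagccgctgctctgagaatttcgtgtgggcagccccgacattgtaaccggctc

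The motifs searched on both strands were the cyclic AMP response element TGACGTCA (CRE), its short form CGTCA (which the full element holds on both strands), the NR5A motif AAGGTCA that LRH-1 and its relative SF-1 can bind, the C/EBP motif TTGCNNAA, the E box CACGTG, the GC box GGGCGG and the TATA box TATAAA. The Areg promoter held a full CRE at -61 to -54, counted from the last base before the start (-1). That element was present in 1.79% of the 32851 promoters of the table. Areg also held a separate short CRE at -115 to -111, GC boxes at -52 to -47 and 38 to 43, and a TATA box at -31 to -26. The Ptgs2 promoter held a C/EBP match at -69 to -62, a GC box at -170 to -165 and, after the start, a short CRE at 14 to 18 that overlapped an E box at 17 to 22. The Tnfaip6 promoter held a GC box at -171 to -166 and no other match. Among all promoters, 20.8% held a short CRE, 10.8% the C/EBP motif, 7.15% the E box, 35.7% the GC box, 13.6% the TATA box and 4.72% the NR5A motif. No match to these NR5A letters lies in the 3 windows shown. A match is a description of the letters and not a binding site.

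**Figure D1:**
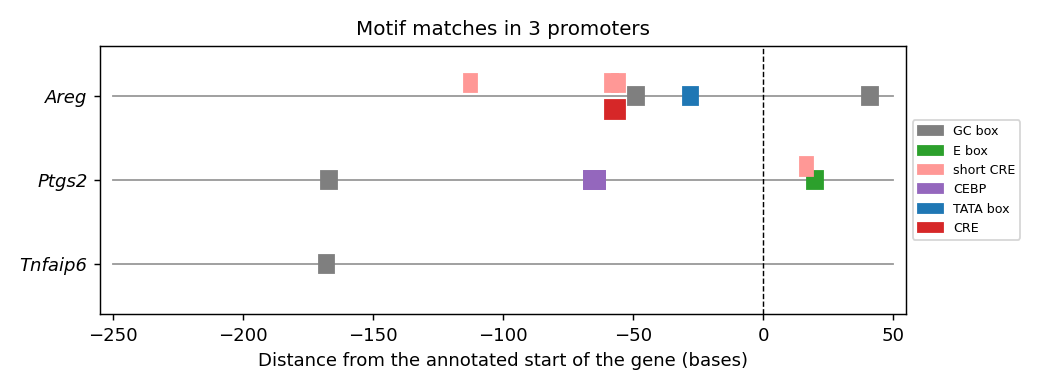
Matches to the searched motifs in the promoters of Areg, Ptgs2 and Tnfaip6, by distance from the annotated start of the gene in bases (dashed line at the start); boxes are matches on either strand, with CRE drawn under and short CRE above the line. Areg holds the full CRE between -61 and -54, Ptgs2 holds a short CRE overlapping an E box after the start, and Tnfaip6 holds a GC box.

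Of the 2 EGF-like ligands, Areg was at 0 TPM in all 3 CTL libraries before hCG, which with 3 counts as the limit over the group allows up to 0.0857 CPM (counts scaled to the library's total). After hCG the CTL libraries 1, 2 and 3 held 76.2, 0.309 and 15.3 TPM of Areg, from 1473, 5 and 172 estimated counts. Every CTL library after hCG was thus above every one before it, but library 2 held only a trace. Over the summed counts Areg was at least 411-fold higher after hCG in CTL (at least 72.3-fold without library 1 after hCG).

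In cKO, Areg stood at 0.0799, 0 and 0 TPM before hCG and at 0.0471, 2.66 and 0.179 TPM after it. The groups overlapped, because cKO library 1 held 1 count at each time. The ratio of summed counts was 45.4 (95% exact counting interval 7.83 to 1821) and 5.93 without library 2 after hCG. Counting intervals here and below cover counting error only and not the wider spread between libraries.

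Ereg, a neighbour of Areg on chromosome 5 with no annotated gene between them in the GRCm38.p6 table, held the most counts of the 5 over the 12 libraries. It stood at 0, 0.0277 and 0 TPM in CTL before hCG, which is 1 count in 3 libraries. After hCG the CTL libraries held 56.5, 198.6 and 43.7 TPM of Ereg. No library overlapped between the times, and the ratio of summed counts was 14019 (95% interval 2516 to 553746), and 3294 or more without library 2 before hCG, which holds the single count. CTL library 2, lowest of its group for Areg, was the highest for Ereg, where 12645 estimated counts made it number 882 of 11784 transcripts above 0 by TPM.

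In cKO, Ereg stood at 0.0556, 0.0157 and 0 TPM before hCG and at 0.273, 89.6 and 32.6 TPM after it. All after-hCG libraries were above all before-hCG libraries, though cKO library 1 reached only 22 counts. The ratio of summed counts was 1869 (95% interval 729.6 to 6859), and 829 without library 2 after hCG and 5471 without library 1 before it. With respect to the spread, the SD of Ereg on the log2(CPM + 1) scale was 1.49 in CTL and 3.67 in cKO after hCG, beside medians of 2.41 and 2.48 for all 13417 transcripts averaging 10 CPM or more.

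Ptgs2 was close to absent before hCG, at 0.0161, 0.0256 and 0 TPM in CTL and at 0.0386, 0.0290 and 0.0652 TPM in cKO. After hCG the CTL libraries held 139.9, 18.5 and 33.7 TPM and the cKO libraries 2.18, 78.9 and 41.0 TPM of Ptgs2. The times did not overlap in either genotype. By summed counts Ptgs2 was 5312-fold higher after hCG in CTL (95% interval 1470 to 43870) and 1016-fold higher in cKO (95% interval 515.2 to 2353). Those folds were 1734 without CTL library 1 after hCG and 588.1 without cKO library 2 after hCG. Ptgs2 was highest in CTL library 1 after hCG, where 11385 estimated counts placed it at number 696 of 22590 transcripts above 0.

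The matrix genes differed in their background. Has2 was the only member of the 5 with more than 5 counts in any library before hCG. Its TPM was 0.137, 0.701 and 0 in CTL before hCG and 5.70, 6.71 and 3.76 after it. The times did not overlap in CTL, and Has2 had the smallest relative spread after hCG there, with a mean of 5.39 ± 1.497 TPM (SD, n = 3) and a highest library 1.78 times the lowest. The ratio of summed counts was 22.9 in CTL (95% interval 16.3 to 33.3), and 68.8 without library 2 before hCG.

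In cKO, Has2 stood at 3.29, 0.0153 and 0.0189 TPM before hCG and at 1.28, 15.9 and 9.14 TPM after it. The groups overlapped, since library 1 before hCG, with 162 counts, lay above library 1 after hCG. That library before hCG is among the 3 that stand apart. The ratio of summed counts was 10.2 (95% interval 8.67 to 11.98) with it and 610 without it.

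Tnfaip6 was at 0, 0 and 0.389 TPM in CTL before hCG and at 91.9, 0.536 and 42.4 TPM after it. The times did not overlap, but the gap was narrow, with 5 counts in CTL library 3 before hCG and 13 in CTL library 2 after it. In cKO it stood at 0.0545, 0 and 0 TPM before and at 8.49, 0.1 and 2.06 TPM after hCG, again without overlap and with as few as 3 counts in library 2 after hCG. The ratios of summed counts were 502.7 in CTL (95% interval 215.2 to 1549) and 259.1 in cKO (95% interval 46.2 to 10262). They were 175.3 without CTL library 1 after hCG and at least 63.2 without cKO library 1 before hCG.

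**Figure D2:**
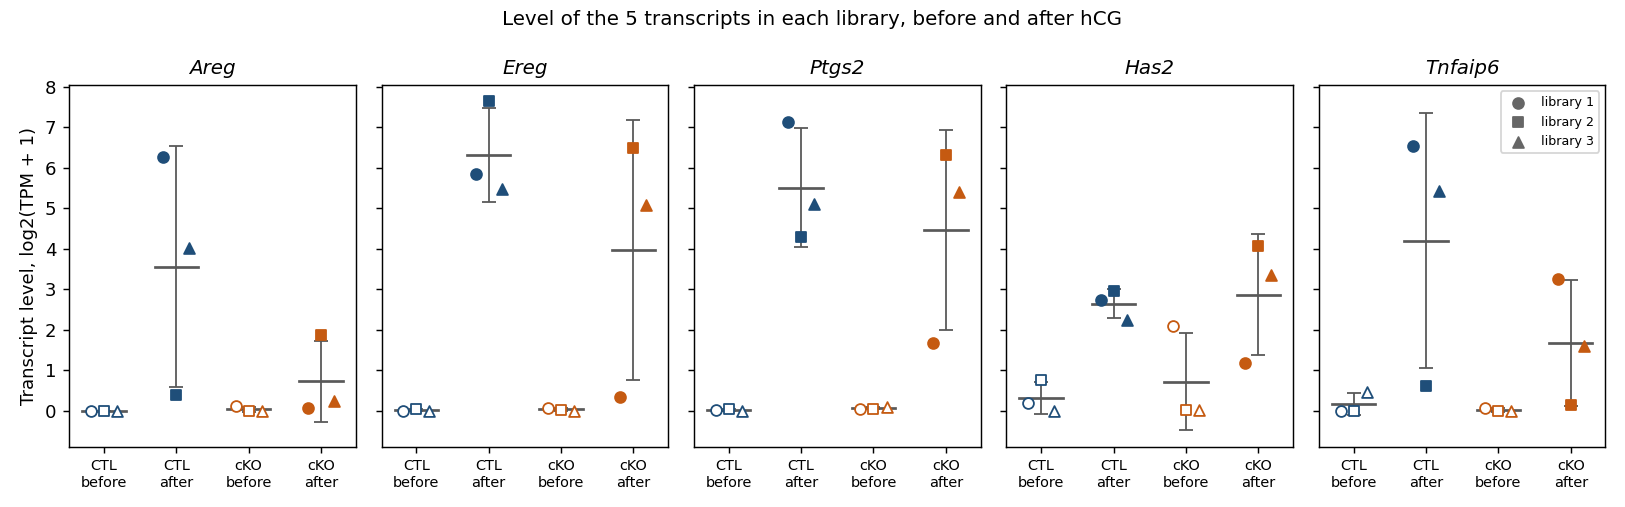
Level of each transcript as log2(TPM + 1) in the 12 libraries, by genotype (blue CTL, orange cKO) and time (open before hCG, filled after), with marker shape for the library number; horizontal lines are group means and bars 1 SD (n = 3). Before hCG the points lie near 0, except Has2, which reaches 0.701 TPM in CTL library 2 and 3.29 TPM in cKO library 1, and after hCG they spread widely within each group.

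Read against all transcripts, the absence of overlap was uncommon. In CTL, all 5 members had every library after hCG above every library before it, against 1.48% of the 32944 transcripts tested. In cKO, 3 of 5 did (Ereg, Ptgs2 and Tnfaip6), against 0.814%. In both genotypes at once 3 of 5 did, against 0.112%. All 5 passed the filter on low counts, but could do so only with libraries after hCG. The shares above, and those set beside the hCG responses below, are therefore a description. The filter asks for enough counts in as many libraries as a group holds. Before hCG, Areg, Ereg, Ptgs2 and Tnfaip6 had 5 counts or fewer in every library. Has2 had at most 0.525 CPM there outside CTL library 2 and cKO library 1. Over all tested transcripts the median log2 change was -0.77 in CTL and -1.52 in cKO, and the other scaling tried (RLE size factors) moved the CTL median by -0.26.

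The hCG response over both genotypes was tested in 1 model of all libraries. Ereg and Ptgs2 rose, by 12.47 ± 2.43 and 11.53 ± 2.47 on the log2 scale (approximate SE, edgeR's quasi-likelihood test, adjusted p = 0.0014 and 0.00623 over 32944 transcripts), and each of the 6 libraries after hCG lay above all those before it in its genotype. That made 2 of 5 members called higher, against 0.118% of all transcripts, and they held places 7 and 16 in the order of p. Because the members passed the filter only with libraries after hCG, this share and these places are a description and no support. Tnfaip6 at 8.90 ± 3.11 and Areg at 8.84 ± 3.25 did not pass (edgeR adjusted p = 0.0934 and 0.0936), nor did Has2 at 4.35 ± 2.6 (edgeR adjusted p = 0.284). The median of the 5 was 8.90, and that of all transcripts tested -1.45. Fitted changes of transcripts at or near 0 counts depend on the small count added by the software and are no bounds.

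The calls did not hold in every fit with libraries left out. These fits ran the filter again and tested more transcripts, 39694 to 43331 with 1 library left out and 36871 without the 3 that stand apart. The part of a library and that of the larger set in a lost call cannot be told apart. The Ereg call was lost without library 1 or 3 of CTL before hCG or library 3 of cKO before hCG (edgeR adjusted p = 0.0501, 0.0712 and 0.111), while without all 3 libraries that stand apart it held (edgeR adjusted p = 0.0437). The Ptgs2 call was lost without any 1 library before hCG (edgeR adjusted p from 0.0796 to 0.185), without library 1 of CTL after hCG (edgeR adjusted p = 0.0726) and without the 3 that stand apart (edgeR adjusted p = 0.3). With limma on log2(TPM + 1) neither passed, at 5.12 for Ereg and 4.95 for Ptgs2 (limma adjusted p = 0.276 and 0.263).

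A test free of the count model permuted the time labels within genotype over all 400 arrangements of log2(TPM + 1). The mean difference was 5.12 for Ereg, 4.95 for Ptgs2 and 2.84 for Tnfaip6, each with exact two-sided permutation p = 0.005, the smallest possible. It was 2.24 for Has2 and 2.13 for Areg (exact permutation p = 0.01 each). These are 5 tests with unadjusted p. Leaving out any 1 CTL library before hCG took Areg to an exact p of 0.11 and Tnfaip6 to 0.055, and leaving out the 3 libraries that stand apart took them to 0.0833 and 0.0667.

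In single genotypes no member was called. In CTL the log2 change was 13.74 ± 3.59 for Ereg, 12.49 ± 3.61 for Ptgs2, 12.13 ± 5.17 for Areg, 9.04 ± 4.46 for Tnfaip6 and 4.82 ± 3.76 for Has2 (edgeR adjusted p = 0.222 for Ereg, 0.339 for Ptgs2, Areg and Tnfaip6, and 0.598 for Has2). In cKO it was 11.20 ± 3.29 for Ereg, 10.57 ± 3.37 for Ptgs2, 8.75 ± 4.34 for Tnfaip6, 5.54 ± 4.02 for Areg and 3.89 ± 3.60 for Has2 (edgeR adjusted p = 0.266 for the first 3 named, 0.441 and 0.586). The background of higher calls was just as low, at 0.00304% in CTL and 0% in cKO. Unadjusted edgeR p-values were under 0.05 for 4 of 5 members in CTL and 3 of 5 in cKO. Over all 32944 transcripts, in either direction, they were so for 4835 in CTL and 6135 in cKO. DESeq2 called the same numbers of members after adjustment. Of all transcripts it called 662 of 26048 higher in CTL and 481 of 25524 in cKO. Limma called 0 members in each.

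**Figure D3:**
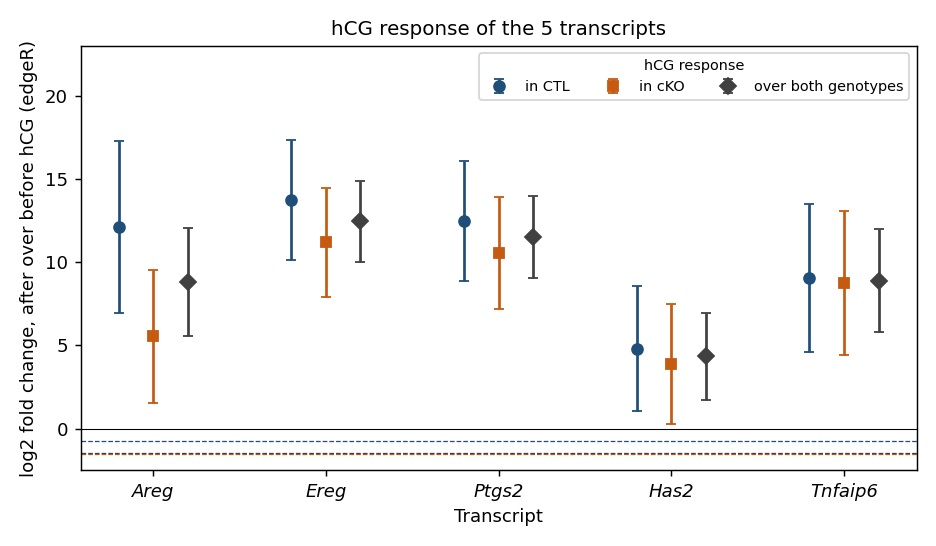
log2 fold change after over before hCG from edgeR for each transcript, in CTL, in cKO and over both genotypes, with bars of 1 approximate SE. Dashed lines give the median of all 32944 tested transcripts in the matching colour. Every point lies above those medians, and among the CTL bars that of Areg is the widest, at 12.13 ± 5.17. Bar widths cannot be compared between CTL, cKO and both genotypes.

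The next comparison asked whether the mediators depended on LRH-1. Before hCG their levels were too low in both genotypes for a fold to be read, with at most 26 counts of any member in a CTL library, and with 162 counts of Has2 in library 1 as the single larger value in cKO. No member was called (edgeR adjusted p = 1 for all 5; background 0.00607%), no unadjusted p was under 0.05, and DESeq2 and limma called 0. Over all transcripts, 2199 of 32944 had an unadjusted edgeR p under 0.05, and DESeq2 called 990 of 30446, so 0 of 5 does not set the members apart.

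After hCG, Areg and Tnfaip6 had the lower means in cKO. Areg was at 30.6 ± 40.2 TPM in CTL and 0.961 ± 1.47 TPM in cKO (SD, n = 3), and Tnfaip6 at 44.9 ± 45.7 and 3.55 ± 4.39 TPM. In each, the genotypes overlapped, because CTL library 2 lay below cKO library 2 for Areg and below cKO libraries 1 and 3 for Tnfaip6. The log2 difference of cKO from CTL was -4.89 ± 4.02 for Areg and -2.73 ± 3.36 for Tnfaip6 (edgeR adjusted p = 0.534 and 0.723). By summed counts CTL was 37.3-fold above cKO for Areg, 6.56-fold without CTL library 1 and 285-fold without cKO library 2. For Tnfaip6 it was 13.3-fold above, 4.64-fold without CTL library 1 and 46.2-fold without cKO library 1. Both differences stayed negative under all 20 alternatives, but so did that of Ereg, and that of Has2 stayed positive in all 20. The alternatives reuse the same libraries, so a stable sign does not set Areg and Tnfaip6 apart.

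Ereg and Ptgs2 had closer means, at 99.6 ± 86.0 and 40.8 ± 45.2 TPM for Ereg in CTL and cKO, and 63.99 ± 66.1 and 40.7 ± 38.4 TPM for Ptgs2. The log2 differences were -1.30 ± 2.18 and -0.58 ± 2.25 (edgeR adjusted p = 0.83 and 0.981). Has2 had the higher mean in cKO, at 8.77 ± 7.31 against 5.39 ± 1.497 TPM in CTL, a log2 difference of 0.82 ± 3.23 (edgeR adjusted p = 0.984). The Ereg difference was -0.09 without CTL library 2 and -2.58 without cKO library 2, and its summed counts in CTL were 2.57-fold those in cKO, 1.27-fold and 5.80-fold without those libraries. For Has2 the ratio of summed counts, CTL over cKO, was 0.642, and 0.996 without cKO library 2. The sign for Ptgs2 depended on the setting, being positive in 2 of 20 alternatives, and its summed counts were 1.79-fold above cKO in CTL but 0.585-fold without CTL library 1. No member was called in this comparison (background 0.00911%), none had an unadjusted p under 0.05, and DESeq2 and limma called 0 of 5. Over all transcripts, 5599 of 32944 had an unadjusted edgeR p under 0.05, DESeq2 called 3472 of 26048, and limma called 0. Beside these shares, 0 of 5 does not set the members apart. At approximate SEs of 2.18 to 4.02 on the log2 scale, a several-fold effect of genotype was not detectable here, and a larger one could be missed. Areg, 37.3-fold apart by summed counts, had an unadjusted edgeR p of 0.223. These values do not show that the genotypes were alike.

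The difference between the hCG responses of cKO and CTL was tested as an interaction. It was negative for all 5, at -6.59 ± 4.95 for Areg, -2.54 ± 3.11 for Ereg, -1.92 ± 3.16 for Ptgs2 and -0.92 ± 4.51 for Has2 (log2 scale, approximate SE). For Tnfaip6 the difference was -0.30 with no usable SE, because the derived value was 8.88 here and 0.0151 with RLE size factors. The sign was not stable for Tnfaip6, positive in 10 of 19 alternatives, or for Has2, positive in 2 of 19. The median over all transcripts was also negative, at -0.59, and -0.41 with RLE size factors. No member passed (edgeR adjusted p from 0.553 to 1; background 0.0334%), none had an unadjusted p under 0.05, and DESeq2 and limma called 0. Over all transcripts, 4397 of 32944 had an unadjusted edgeR p under 0.05, and DESeq2 called 3144 of 27081, so 0 of 5 does not set the members apart.

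The members did not keep a fixed proportion to one another after hCG. Such spread was not particular to them. Within groups after hCG, their SDs of log2(CPM + 1) exceeded those of 16.9% to 76.1% of the 13417 transcripts averaging 10 CPM or more. By TPM, which is per length and so can be compared between transcripts of a library, the order in CTL was Ptgs2, Tnfaip6, Areg, Ereg, Has2 in library 1, Ereg, Ptgs2, Has2, Tnfaip6, Areg in library 2 and Ereg, Tnfaip6, Ptgs2, Areg, Has2 in library 3. In cKO it was Tnfaip6, Ptgs2, Has2, Ereg, Areg in library 1, Ereg, Ptgs2, Has2, Areg, Tnfaip6 in library 2 and Ptgs2, Ereg, Has2, Tnfaip6, Areg in library 3. Ptgs2 was above both Has2 and Areg in 6 of 6 libraries, and no other pair of members kept its order in all 6.

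Ereg made up 88.4% of the summed TPM of the 5 in CTL library 2 and 2.23% in cKO library 1. Tnfaip6 made up 69.2% of it in cKO library 1 and 0.0534% in cKO library 2. The ratio of Ereg to Tnfaip6 accordingly ran from 0.0322 to 896.3 over the 6 libraries, the widest of the 10 pairs by SD of the log2 ratio, at 5.72. The narrowest was Ptgs2 to Has2, from 1.70 to 24.6, with an SD of 1.35. The neighbouring ligand genes did not track each other, with an Areg to Ereg ratio between 0.00155 and 1.35. The highest Ereg to Tnfaip6 ratio rests on 3 counts of Tnfaip6 in cKO library 2. The lowest Areg to Ereg ratio rests on 5 counts of Areg in CTL library 2.

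**Figure D4:**
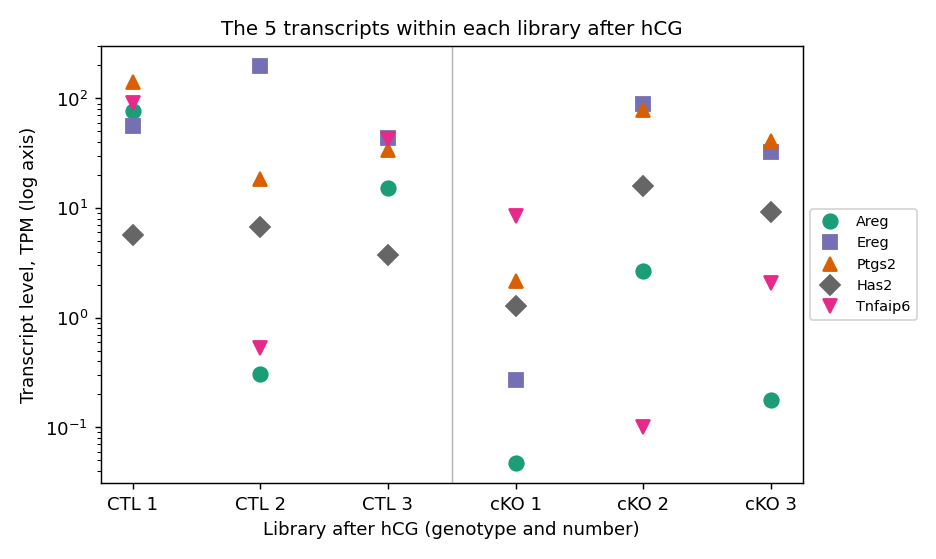
TPM of the 5 transcripts (log axis) in the 6 libraries after hCG, 3 CTL on the left and 3 cKO on the right; each marker is 1 transcript in 1 library. Areg and Tnfaip6 fall to 0.309 and 0.536 TPM in CTL library 2 while Ereg is at its highest there with 198.6 TPM, and in cKO library 1 Tnfaip6 is the highest of the 5 at 8.49 TPM.

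These libraries also differed in how many transcripts they detected. CTL library 2 after hCG, with low Areg and Tnfaip6 and high Ereg, had 11784 transcripts above 0, and cKO library 1, with the lowest Ereg, Areg, Ptgs2 and Has2 of all libraries after hCG, had 16829. CTL library 3, where Areg and Tnfaip6 were high, had 27351, and CTL library 1, where Areg, Tnfaip6 and Ptgs2 were highest, had 22590. In cKO, Tnfaip6 was highest in library 1, at 8.49 TPM, and lowest in library 2, at 0.1 TPM with 18682 transcripts above 0. The part of detection in these differences was not tested.

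Across all 12 libraries, on the log2(CPM + 1) scale, Ereg and Ptgs2 had the highest Pearson's r of the 10 pairs, at 0.95, followed by Ptgs2 and Has2 at 0.89, Ereg and Has2 at 0.87 and Areg and Tnfaip6 at 0.79. Tnfaip6 and Has2 had the lowest, at 0.45. These values describe libraries of both times, so the change at hCG is in all of them.

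Other transcripts were ranked by their likeness to the mean standardised pattern of the 5, over the 13413 others averaging 10 CPM or more. The closest was ENSMUST00000213774 (316 bases, r = 0.92 over 12 libraries), at 16.8 to 131.4 TPM before hCG and 513.2 to 7601 TPM after it. Next was ENSMUST00000029771 (1872 bases, r = 0.92), listed at 0 in 5 of 6 libraries before hCG and at 0.232 to 69.6 TPM after it. The most opposite were ENSMUST00000134505 (662 bases, r = -0.91), at 41.4 to 113.2 TPM before hCG and at most 0.0951 TPM after it, and ENSMUST00000107165 (10930 bases, r = -0.91), at 13.2 to 60.5 TPM before and at most 0.0760 TPM after it. Gene names of these 4 are not given here, and likeness says nothing of a shared function.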

How the data were processed

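The 12 RNA tables deposited by the authors hold, per the file headers, estimated counts and TPM per transcript with its length and effective length. Per the submitters' processing notes, Trimmomatic, TopHat2 2.0.12, kallisto and DESeq2 were used with build mm9, with no role or order given; no source at hand names the transcript annotation. Kallisto splits reads among similar transcripts, so a count is an estimate. Per the labels' protocol, libraries started from 300 ng of RNA.

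Estimated counts were rounded. In R 4.3.3, edgeR 4.0.16 kept 32944 transcripts with filterByExpr, scaled by TMM, fitted 4 groups in 1 quasi-likelihood model, and gave 6 contrasts (glmQLFTest), called at a Benjamini-Hochberg adjusted p under 0.05 over all transcripts kept. SEs are the size of the log2 change over the square root of the F statistic. They are approximate, since the change includes the small count added by the software and F does not. They are unreliable near no change and cannot be compared between contrasts. Folds of summed counts have exact (Clopper-Pearson) counting intervals at 95%; a group at 0 was set to 3 counts over its libraries. CPM are counts over a library's total, TMM-scaled for correlations and spreads. Permutation, likeness and motif steps ran in Python 3.11.15. DESeq2 1.42.0, limma 3.58.1 and further settings were alternatives.

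The members and lists were chosen with earlier results of these data known. The 5 members were named always; of other transcripts, the 2 most like and the 2 most opposite were named. No table pairing other ENSMUST identifiers with symbols was used here, so the planned lists of pathway genes and cell markers were not run. Peak lists of open chromatin and LRH-1 binding were not analysed here.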

Additional observations from a re-analysis of the deposited data

How the results depend on the processing

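All 5 members kept a positive hCG response under every alternative that gave a value, in CTL, in cKO and over both genotypes; no member's call reversed in any comparison. Single-genotype and pooled calls depended on the tool. DESeq2 called, in CTL, Areg (log2 change 11.05), Ereg (14.41), Ptgs2 (12.43) and Tnfaip6 (8.90), in cKO Ereg (11.19), Ptgs2 (10.65) and Tnfaip6 (9.47), and over both genotypes also Areg (8.55) and Tnfaip6 (9.18). Of all transcripts DESeq2 called 662 of 26048 higher in CTL, 481 of 25524 in cKO and 845 of 26552 over both genotypes. With limma, Ereg and Ptgs2 over both genotypes no longer passed, at 5.12 and 4.95 with a pseudocount of 1 and at 7.96 and 7.85 with 0.1. Without the 3 libraries that stand apart Ptgs2 did not pass (10.74), and the permutation differences of Areg (1.47) and Tnfaip6 (2.23) did not either. With 1 library left out, the change over both genotypes ran from 11.83 to 13.54 for Ereg and from 10.74 to 11.81 for Ptgs2, and the permutation difference from 1.45 to 2.92 for Areg and from 2.26 to 3.73 for Tnfaip6.

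Calls over all transcripts, for the hCG response in CTL, in cKO and over both genotypes, and for cKO against CTL before hCG, after hCG and the interaction, were 2, 0, 57, 2, 3 and 11. DESeq2 called 2614, 3469, 5913, 990, 3472 and 3144. Limma called 0, 0, 5, 0, 0 and 0 with a pseudocount of 1 and 0, 0, 7, 0, 0 and 0 with 0.1. Without a filter the numbers were 0, 1, 30, 0, 1 and 8, and with RLE factors 3, 0, 65, 1, 2 and 9. With the replicate block they were 7, 8, 24, 1, 4 and 11; no member's call changed with it. The labels do not say that file numbers pair libraries. Deviations from the group means correlated above 0.1 in 7 of 18 same-numbered pairs (median 0.05, highest 0.39). They did so in 3 of 36 other pairs (median -0.02, highest 0.17). Same-numbered libraries thus deviated together more often, though not in every pair, and the main model did not treat file numbers as a pairing. Without the 3 libraries that stand apart the calls were 1, 2, 17, 1, 1 and 7. Fits of only the 2 groups compared gave 4 for CTL, 0 for cKO, 0 before and 0 after hCG. With 1 library left out they ran from 0 to 5, 0 to 8, 2 to 39, 0 to 5, 0 to 8 and 2 to 14. The causes were not tested. Before hCG the members hold from 0 to 5 counts in most libraries, which limits what can be read from their levels there.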
